A study of Coturnix japonica with 19 samples.

Results

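DNA replication genes were followed in the pituitary gland of 19 Japanese quail. The list holds 39 symbols of the proteins that license and fire replication origins, unwind and copy DNA, join the copied pieces and supply the nucleotides. Of these, 37 were found among the 19562 gene symbols of the deposited table, and MCM7 and POLD1 were not analysed here because no row carried those symbols. The members were picked by name and function, with earlier results of these data known. They fall into 5 MCM helicase subunits, 4 genes of origin licensing, 5 of helicase activation, 6 of the polymerases and primase, 6 of the sliding clamp and its loader, 2 of flap removal and ligation, 3 of single-strand binding, 5 of nucleotide supply, and UHRF1.

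Each library came from 1 bird, read as PCR-amplified complementary DNA on a Nanopore GridION. The groups were 5 adults and 4 juveniles under 16 h of light and 8 h of dark (16L), and 5 adults and 5 juveniles under 8 h of light and 16 h of dark (8L). The adults were males that spent 2 weeks under long days at first and were collected after 8 weeks in their photoperiod, and by the study's design the 16L adults had passed through short days before, so that light history and age come with photoperiod in adults. The juveniles spent their first 5 days under long days and 5 days in the assigned photoperiod, and were taken at posthatch day 10. The study lists both sexes among the juveniles, so age comes together with sex. The stalk was cut so that the pars tuberalis stayed on the hypothalamus, and the piece taken from the bony seat of the gland held the pars distalis. In such bulk samples a lower share of dividing cells and less RNA per dividing cell cannot be told apart.

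A cell copies its genome once in S phase. The origin recognition complex with CDC6 and CDT1 loads a ring of MCM proteins onto DNA, CDC45 and the GINS proteins turn this ring into the active helicase, and polymerases clamped to the template by PCNA copy the strands. Several of these genes, among them those of the MCM proteins, RRM2 and TK1, are transcribed mainly in cells that are about to divide or are dividing, while others, such as those of the clamp loader and of single-strand binding protein, also serve DNA repair in resting cells. Most of this was worked out in yeast, frog eggs and mammalian cells, and the roles given below rest on that work. In the pituitary of young animals hormone cells and their progenitors still divide, and division is rarer in the adult gland.

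Counts of PCNA, RRM2, TK1 and CDC45 made up a larger share of juvenile samples than of adult ones. The part of bone and other tissues in this was not tested. Most members showed no difference past the test. PCNA, the sliding clamp, had a fitted difference of 1.44 ± 0.34 on the log2 scale (SE) in juveniles over adults. It was the only member called among the 10 that passed the filter on low counts. No adult library reached the level of that filter for PCNA, so PCNA was tested only because of its juvenile values. PCNA was not called with no filter (adjusted p 0.146 by edgeR) or without the birds that were shallow, rich in bone markers or had HINTW counts (adjusted p 0.0608 to 0.0859), and it left the filter in 9 of 19 fits with 1 bird left out. RRM2, TK1 and CDC45 were nearly absent from adults and were called higher in juveniles, by 4.09 ± 0.69, 4.18 ± 0.74 and 4.28 ± 0.74 on the log2 scale (SE), in the fit with no such filter. The SE of each fitted value, here and below, was worked back from the F statistic of its test. It is only approximate, above all where counts are few. The summed level of the MCM subunits was above that of every adult in each of the 9 juveniles, and in 7 of 9 without the TMM factor. This sum carries no test and rests on as few as 4 counts in a juvenile, and no other role's sum separated the ages. POLE2, an accessory subunit of DNA polymerase epsilon, had a lower fitted value in juveniles (-2.11 ± 0.82) and was called only in some alternatives, such as that without juveniles rich in bone markers. No member was called between photoperiods at either age, under any alternative run.

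Depth limits these values. Library totals ran from 90599 to 4796665 counts, and 5 libraries held under 200000 counts, 1 of them adult and 4 juvenile. One count stood for 0.240 to 8.61 CPM, the count per 1000000 counts of a library after its total was scaled by the TMM factor. It stood for 0.240 to 5.67 CPM in adults and 0.908 to 8.61 CPM in juveniles. For a gene with few counts, 1 count in a shallow juvenile library can thus lie above every adult. Tallies of juveniles above every adult partly restate whether such a gene was counted at all. Counts of transcripts of the same gene were often near copies of each other. Among genes with 2 or more transcripts and at least 10 counts, between 68.9% and 80% per library had a second transcript within 10% of the highest, so reads appear to have been counted on several transcripts, and the sums over transcripts may overstate the reads. The 37 members are 17 genes with 1 transcript, whose own counts this cannot raise, and 20 genes with more. Library totals hold such repeats too, so the CPM of all members depends on them. The 17 genes had a mean sum of 71.2 CPM in adults and 123 CPM in juveniles. With the highest transcript of each gene these means were 126 and 214 CPM. Each result was therefore also computed with the highest transcript of each gene in each library. In the quail annotation GINS1, GINS2, POLA1, POLE2, RFC1, FEN1 and RRM2 overlap another gene, and since the counting is not stated to use strand, reads of the overlapping pairs cannot be told apart. CPM is not per length, so that levels are compared between birds and never between genes. HINTW, a gene of the female sex chromosome, was counted in juveniles 3 and 4 of 16L and juvenile 2 of 8L at 120, 67 and 307 counts and in no other bird, which goes against the listed sex of juveniles 2 and 3 of 16L. Bone markers were high in juveniles 1 and 2 of 16L and 1 and 5 of 8L (summed CPM of 16 osteoblast and osteocyte genes 2300.0 to 14203, against 45.4 to 75.9 in adults, in which IBSP, SP7 and DMP1 were at 0).

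The whole list summed to 365, 220.0, 314, 300.3 and 293 CPM in the 5 adults of 16L and to 297, 119, 321, 367 and 344 CPM in those of 8L. In juveniles the sums were 247, 336, 435 and 338 CPM under 16L and 373, 632, 308, 257 and 469.8 CPM under 8L. The adult mean was 294 ± 74.6 CPM (SD, n = 10) and the juvenile mean 377 ± 120.5 CPM (SD, n = 9), and the ages overlap, with 4 of 9 juveniles above every adult. With the highest transcript of each gene the means were 283 ± 82.2 and 409 ± 108 CPM (SD). The 17 members with 1 transcript showed a wider gap, with a juvenile mean sum 1.73 times the adult one, against 1.28 times for all 37. For comparison, 31 genes of mitosis summed to 100.1 to 272 CPM in adults and to 318 to 1171 CPM in juveniles, without overlap. These sums are descriptions of the lists and carry no test.

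**Figure D1:**
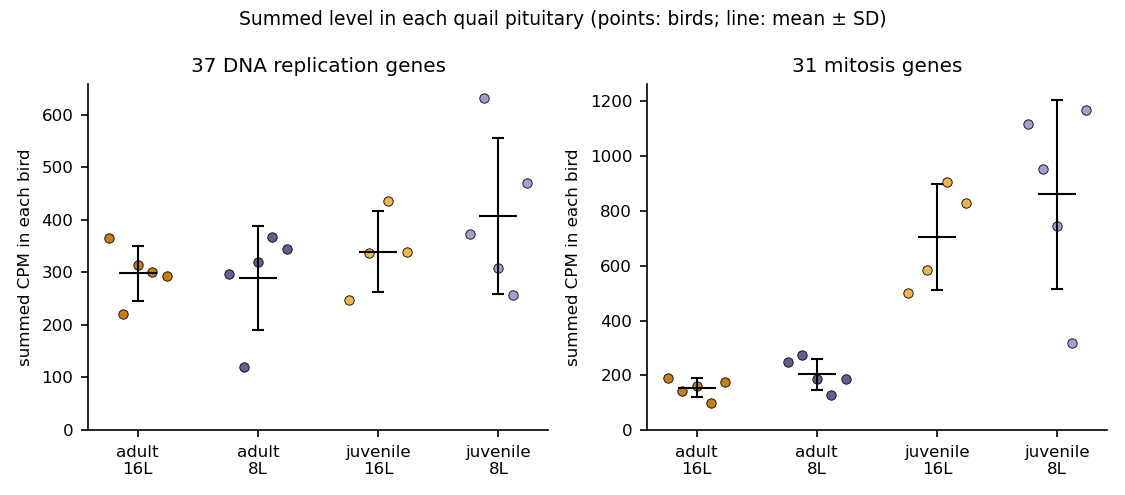
Summed CPM of the 37 DNA replication genes (left) and of 31 mitosis genes (right) in each bird, by group. Points are birds and the line with bars is the mean ± SD. The replication sums of adults (119 to 367 CPM) and juveniles (247 to 632 CPM) overlap, while the mitosis sums of adults (100.1 to 272 CPM) lie below those of juveniles (318 to 1171 CPM).

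Juvenile libraries were mostly shallower, and a rare RNA is missed more often at low depth. As deposited, 6 to 34 members had a count in an adult library and 15 to 34 in a juvenile one. If every library were thinned to 57580 counts (highest transcript of each gene), the total of the shallowest, 10.9 ± 3.74 members would be expected with a count in adults and 14.7 ± 4.35 in juveniles (SD over birds). The range was 4.59 to 16.7 in adults and 8.71 to 21.8 in juveniles, so single birds of both ages overlap at equal depth. For the 31 mitosis genes the same numbers were 4.32 ± 1.76 in adults and 12.9 ± 3.28 in juveniles. The number expected over all genes was not computed, so whether these gaps are particular to the lists was not tested.

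**Figure D2:**
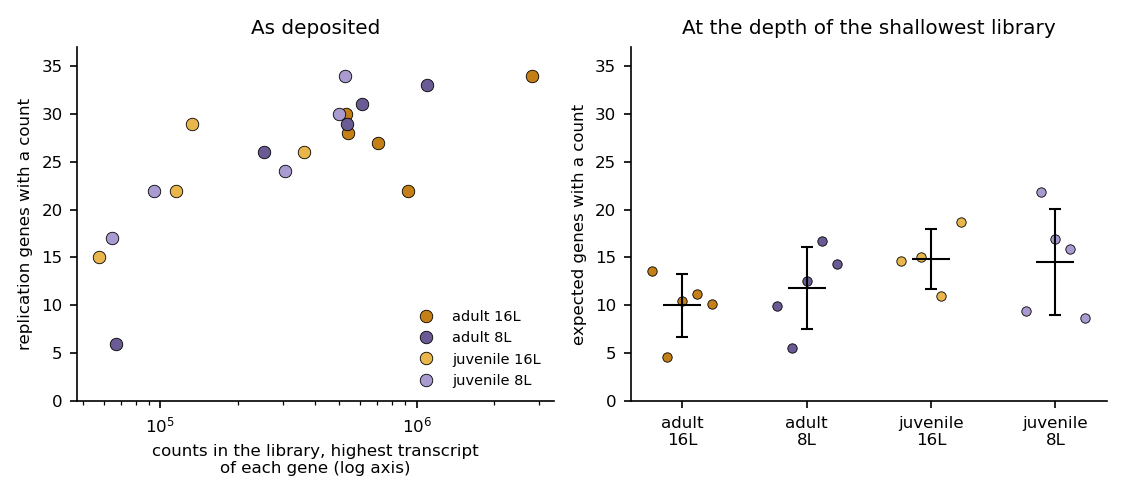
Left, number of the 37 replication genes with at least 1 count against the counts of the library (log axis, highest transcript of each gene), 1 point per bird. Right, the number expected if each library were thinned to 57580 counts, with the mean ± SD of each group. As deposited the number ran from 6 to 34, and after thinning adults lie at 4.59 to 16.7 and juveniles at 8.71 to 21.8.

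**Figure D3:**
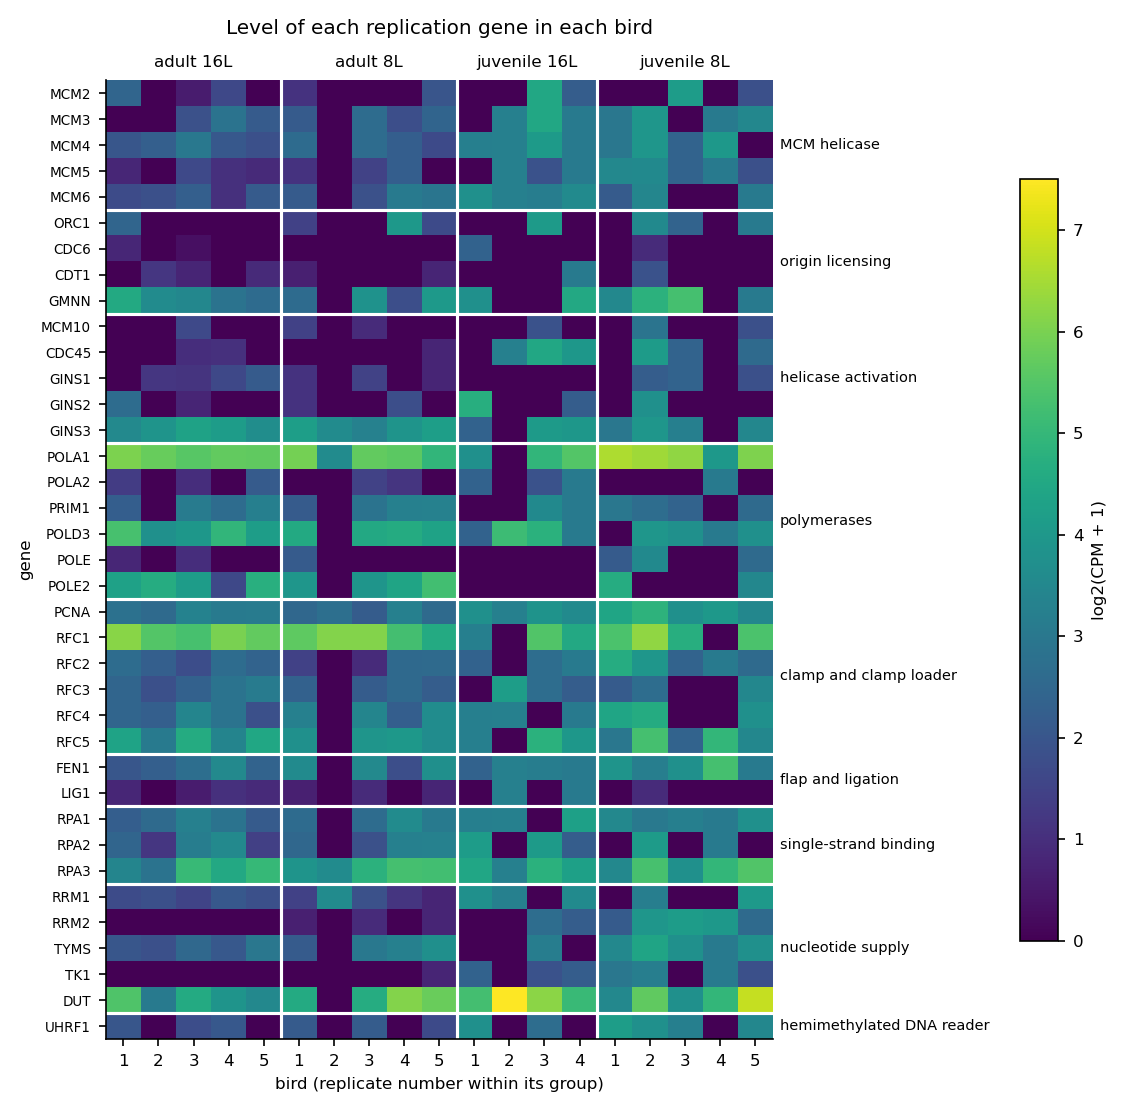
Level of each of the 37 members in each bird as log2(CPM + 1), with genes ordered by role and birds by group. Dark cells are birds with no or few counts. The RRM2, TK1 and CDC45 rows are dark in adults and lit in most juveniles, the POLE2 row is lit in 9 of 10 adults and 2 of 9 juveniles, and adult bird 2 of 8L is dark for most genes.

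For each role the 2 members with the highest mean CPM are given bird by bird, with those that passed a test, in the order of replicate number. The MCM proteins form the ring that unwinds DNA. Their summed level in adults was 10.5, 6.32, 16.1, 13.7 and 10.2 CPM under 16L and 14.5, 0, 15.1, 17.4 and 16.03 CPM under 8L. In juveniles it was 20.9, 34.5, 69.8 and 36.8 CPM under 16L and 27.3, 49.9, 25.3, 30.3 and 22.9 CPM under 8L. The lowest juvenile lay above the highest adult, as it did with the highest transcript of each gene (31.1 to 87.2 CPM against 0 to 29.1 CPM), whereas without the TMM factor 7 of 9 juveniles lay above every adult and the ranges met. These juvenile sums rest on few counts, with 5 in juvenile 1 of 16L and 4 each in juvenile 2 of 16L and juvenile 4 of 8L. No other role's sum separated the ages. All 5 subunits had a positive fitted difference with no filter, from 1.00 for MCM6 to 2.05 for MCM5 on the log2 scale, and none of the 5 was called there or passed the filter. MCM4 in adults was 3.00, 3.79, 6.96, 3.16 and 2.56 CPM under 16L and 5.21, 0, 5.33, 3.73 and 2.19 CPM under 8L. Juvenile MCM4 was 8.36, 8.61, 16.1 and 7.36 CPM under 16L and 6.84, 14.5, 4.22, 15.1 and 0 CPM under 8L. It was 2.51 times higher in the juvenile mean, with 6 of 9 juveniles above every adult. MCM3 in adults was 0, 0, 2.64, 6.32 and 3.41 CPM under 16L and 3.48, 0, 5.33, 2.49 and 4.37 CPM under 8L. Juvenile MCM3 was 0, 8.61, 21.5 and 7.36 CPM under 16L and 6.84, 14.5, 0, 7.57 and 10.2 CPM under 8L. MCM3 was absent from 3 adults and 2 juveniles, and 7 juveniles lay above every adult. In juvenile 2 of 16L and juvenile 4 of 8L this rests on 1 count each.

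Origin licensing loads that ring. GMNN in adults was 22.5, 11.4, 10.1, 6.32 and 5.12 CPM under 16L and 5.21, 0, 13.3, 2.49 and 15.3 CPM under 8L. Juvenile GMNN was 12.5, 0, 0 and 22.1 CPM under 16L and 10.3, 27.2, 37.9, 0 and 7.62 CPM under 8L. GMNN encodes geminin, which blocks CDT1 after licensing, and its values overlapped widely, with a fitted age difference of 0.72 ± 0.61 on the log2 scale. ORC1 in adults was 4.51, 0, 0, 0 and 0 CPM under 16L and 1.74, 0, 0, 14.9 and 2.19 CPM under 8L. Juvenile ORC1 was 0, 0, 16.1 and 0 CPM under 16L and 0, 10.9, 4.22, 0 and 7.62 CPM under 8L. ORC1, the largest subunit of the origin recognition complex, was counted in 4 adults and 4 juveniles. CDC6, a loading factor, had 2 counts in adults and 2 in juveniles in all, and CDT1, its partner, was counted in 5 adults and 2 juveniles, so that neither can be compared at this depth.

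Helicase activation turns the loaded ring into a working machine. CDC45 in adults was 0, 0, 0.96, 1.05 and 0 CPM under 16L and 0, 0, 0, 0 and 0.729 CPM under 8L. Juvenile CDC45 was 0, 8.61, 21.5 and 14.7 CPM under 16L and 0, 16.3, 4.22, 0 and 5.08 CPM under 8L. CDC45, which binds the ring as part of the active helicase, was counted in 3 of 10 adults and 6 of 9 juveniles, and each of these 6 juveniles lay above every adult. On its highest transcript it had 4 counts in all adults and 13 in all juveniles, a pooled ratio of 13.9 (exact 95% interval 4.30 to 58.6, counting error only). GINS3 in adults was 10.5, 13.9, 18.97, 16.9 and 11.9 CPM under 16L and 17.4, 11.3, 8.88, 13.7 and 17.5 CPM under 8L. Juvenile GINS3 was 4.18, 0, 16.1 and 14.7 CPM under 16L and 6.84, 14.5, 8.43, 0 and 10.2 CPM under 8L. GINS3, a subunit of the GINS complex that joins CDC45, was found in every adult, and its fitted age difference was -0.40 ± 0.38 on the log2 scale. MCM10, GINS1 and GINS2 reached 17 counts at most in either age on their highest transcript. Whether the age differences of CDC45 and GINS3 differ was not tested.

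The polymerases and primase copy the strands that the helicase opens. POLA1 in adults was 63.8, 53.1, 45.9, 51.6 and 50.3 CPM under 16L and 60.8, 11.3, 50.6, 48.5 and 29.9 CPM under 8L. Juvenile POLA1 was 12.5, 0, 29.5 and 44.1 CPM under 16L and 95.7, 85.3, 75.9, 15.1 and 66.02 CPM under 8L. POLA1, the catalytic subunit of the polymerase that starts each strand, did not separate the ages and had a fitted age difference of 0.10 ± 0.45 on the log2 scale. POLD3 in adults was 39.1, 12.6, 14.6, 29.5 and 17.1 CPM under 16L and 22.6, 0, 22.2, 23.6 and 18.9 CPM under 8L. Juvenile POLD3 was 4.18, 34.5, 26.9 and 7.36 CPM under 16L and 0, 14.5, 12.6, 7.57 and 12.7 CPM under 8L. POLD3, an accessory subunit of polymerase delta, spread from 0 to 39.1 CPM in adults and from 0 to 34.5 CPM in juveniles. POLE2 in adults was 18.8, 24.03, 16.8, 2.11 and 25.6 CPM under 16L and 14.5, 0, 14.2, 19.9 and 36.4 CPM under 8L. Juvenile POLE2 was 0, 0, 0 and 0 CPM under 16L and 23.9, 0, 0, 0 and 10.2 CPM under 8L. POLE2 had no count in any of the 4 juveniles of 16L and was counted in every adult of 16L. On its highest transcript POLE2 had 56 counts in adults and 3 in juveniles, a pooled adult-to-juvenile ratio of 4.36 (exact 95% interval 1.42 to 21.8). Under 16L, where juveniles had 0 counts and adults 32, a floor of 3 counts over the juvenile group makes POLE2 at least 1.28-fold lower in juveniles, so the fitted value given below for that comparison is no measure of size. POLE2 overlaps DNAAF2 in the quail annotation, and its 6 transcripts held unequal counts. POLE, POLA2 and PRIM1 had 8, 7 and 84 counts at most in either age on their highest transcript, and only 2 of the 6 polymerase genes had a positive fitted age difference with no filter.

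PCNA encloses DNA as a sliding clamp for the polymerases and was counted in all 19 birds on a single transcript. PCNA in adults was 6.01, 5.06, 9.12, 7.38 and 7.68 CPM under 16L and 4.63, 5.67, 3.55, 8.70 and 5.10 CPM under 8L. Juvenile PCNA was 12.5, 8.61, 13.4 and 11.03 CPM under 16L and 20.5, 28.1, 12.6, 15.1 and 10.2 CPM under 8L. The highest adult, at 9.12 CPM, lay above 1 juvenile and below the other 8. The adults averaged 7.05 ± 1.57 CPM under 16L and 5.53 ± 1.94 under 8L, and the juveniles 11.4 ± 2.10 and 17.3 ± 7.16 (SD). The clamp loader places PCNA on DNA, and 5 of the 6 genes of clamp and loader had a positive fitted age difference with no filter. RFC1 in adults was 71.4, 44.3, 39.1, 63.2 and 51.2 CPM under 16L and 49.2, 68.04, 68.4, 37.3 and 23.3 CPM under 8L. Juvenile RFC1 was 8.36, 0, 42.96 and 22.1 CPM under 16L and 41.02, 75.3, 25.3, 0 and 40.6 CPM under 8L. RFC1, its large subunit, had a lower juvenile mean (28.4 ± 24.5 CPM against 51.5 ± 15.97, SD), with a fitted difference of -0.67 ± 0.45 on the log2 scale that was not called. RFC5 in adults was 19.5, 7.59, 23.8, 9.48 and 21.3 CPM under 16L and 12.7, 0, 14.2, 14.9 and 11.7 CPM under 8L. Juvenile RFC5 was 8.36, 0, 26.9 and 14.7 CPM under 16L and 6.84, 38.1, 4.22, 30.3 and 10.2 CPM under 8L. RFC5 overlapped between the ages (0.43 ± 0.47 on the log2 scale). RFC2, RFC3 and RFC4 had juvenile means of 8.02, 5.03 and 9.01 CPM against 3.37, 4.13 and 6.06 in adults, with overlap in each.

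**Figure D4:**
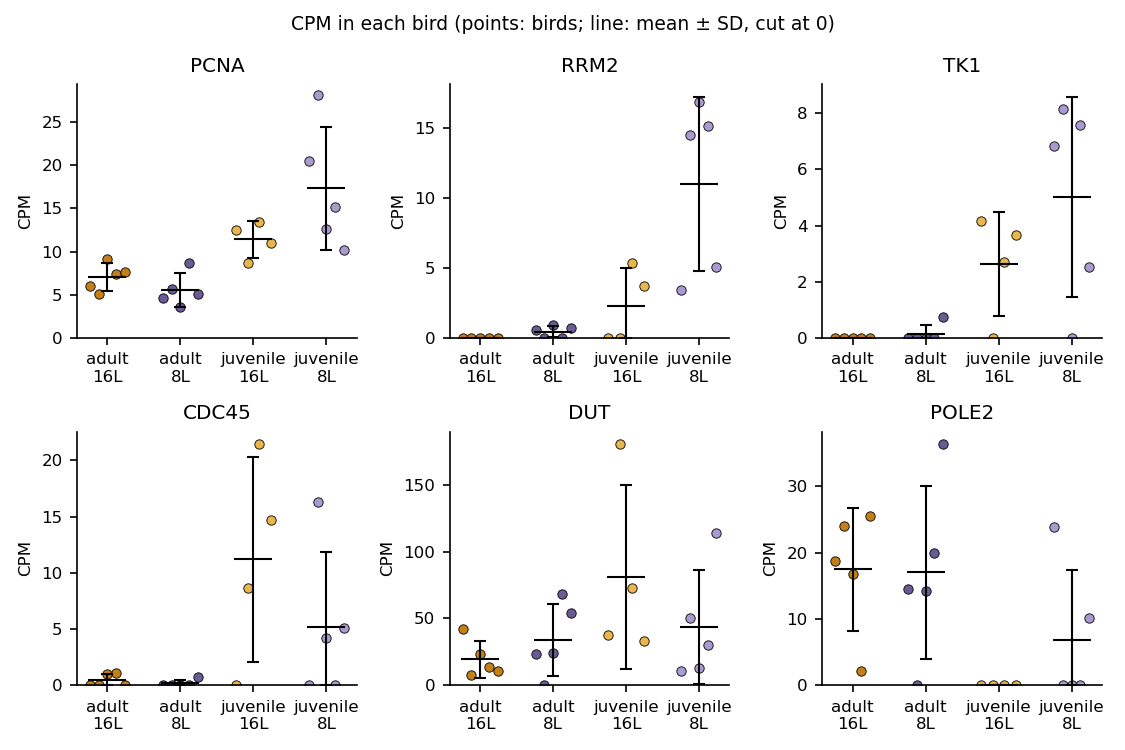
CPM of PCNA, RRM2, TK1, CDC45, DUT and POLE2 in each bird, by group (points are birds, the line with bars is the mean ± SD, cut at 0). PCNA lies at 3.55 to 9.12 CPM in adults and 8.61 to 28.1 CPM in juveniles, RRM2 and TK1 reach at most 0.888 and 0.729 CPM in adults, and POLE2 is at 0 in all 4 juveniles of 16L.

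FEN1 cuts the flaps left between pieces of the lagging strand, and LIG1 seals them. FEN1 in adults was 3.00, 3.79, 5.52, 10.5 and 4.26 CPM under 16L and 11.004, 0, 10.7, 2.49 and 12.4 CPM under 8L. Juvenile FEN1 was 4.18, 8.61, 8.05 and 7.36 CPM under 16L and 13.7, 8.17, 12.6, 37.9 and 7.62 CPM under 8L. FEN1 was counted in every juvenile and 9 of 10 adults, and its juvenile mean of 12.02 ± 10.1 CPM (SD) rests in part on juvenile 4 of 8L. LIG1 in adults was 0.751, 0, 0.48, 1.05 and 0.853 CPM under 16L and 0.579, 0, 0.888, 0 and 0.729 CPM under 8L. Juvenile LIG1 was 0, 8.61, 0 and 7.36 CPM under 16L and 0, 0.908, 0, 0 and 0 CPM under 8L. LIG1 had 8 counts in all adults and 4 in all juveniles.

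Replication protein A coats single-stranded DNA. RPA3 in adults was 9.76, 6.32, 32.2, 22.1 and 31.6 CPM under 16L and 13.9, 11.3, 27.5, 38.5 and 36.4 CPM under 8L. Juvenile RPA3 was 20.9, 8.61, 26.9 and 18.4 CPM under 16L and 10.3, 39.02, 12.6, 30.3 and 43.2 CPM under 8L. RPA3 was counted in all 19 birds, and its age means of 22.97 ± 11.9 and 23.3 ± 12.4 CPM (SD, adults and juveniles) differed by less than the spread, with a fitted difference of 0.19 ± 0.38 on the log2 scale. RPA1 in adults was 3.76, 5.06, 8.64, 6.32 and 3.41 CPM under 16L and 5.21, 0, 5.33, 11.2 and 7.29 CPM under 8L. Juvenile RPA1 was 8.36, 8.61, 0 and 18.4 CPM under 16L and 10.3, 7.26, 8.43, 7.57 and 12.7 CPM under 8L. RPA1 stood above the adult median in 8 of 9 juveniles and above every adult in 2. RPA2 overlapped (adult mean 5.09 CPM, juvenile mean 6.71 CPM).

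The genes of nucleotide supply provide the building blocks of DNA. RRM2 encodes the subunit of ribonucleotide reductase that is made for S phase. RRM2 in adults was 0, 0, 0, 0 and 0 CPM under 16L and 0.579, 0, 0.888, 0 and 0.729 CPM under 8L. Juvenile RRM2 was 0, 0, 5.37 and 3.68 CPM under 16L and 3.42, 14.5, 16.9, 15.1 and 5.08 CPM under 8L. No adult of 16L had a count of RRM2, 3 adults of 8L had 1 count each, and 7 of 9 juveniles had between 1 and 16 counts. The pooled ratio of 28 juvenile to 3 adult counts was 40.001 (exact 95% interval 12.4 to 206). TK1, the thymidine kinase of dividing cells, went the same way. TK1 in adults was 0, 0, 0, 0 and 0 CPM under 16L and 0, 0, 0, 0 and 0.729 CPM under 8L. Juvenile TK1 was 4.18, 0, 2.69 and 3.68 CPM under 16L and 6.84, 8.17, 0, 7.57 and 2.54 CPM under 8L. Adults had 1 count of TK1 in all and juveniles 16, a pooled ratio of 68.6 (exact 95% interval 10.7 to 2876). Both genes have 1 transcript, and of the juvenile counts 16 of RRM2 and 9 of TK1 came from juvenile 2 of 8L, the deepest juvenile library. Outside juveniles 1 and 2 of 8L, every juvenile in which TK1 was counted had just 1 count of it. RRM1, the partner subunit of RRM2, was counted in 10 adults and 5 juveniles, with means of 3.01 ± 3.01 CPM in adults and 6.18 ± 6.21 in juveniles (SD). DUT removes dUTP, so that uracil is kept out of DNA. DUT in adults was 42.1, 7.59, 23.3, 13.7 and 10.2 CPM under 16L and 23.2, 0, 23.97, 68.4 and 53.9 CPM under 8L. Juvenile DUT was 37.6, 181, 72.5 and 33.1 CPM under 16L and 10.3, 49.9, 12.6, 30.3 and 114 CPM under 8L. DUT had its highest value in juvenile 2 of 16L, the shallowest library of its group, and its adult and juvenile ranges overlapped. TYMS in adults was 3.00, 2.53, 4.80, 3.16 and 6.82 CPM under 16L and 3.48, 0, 7.10, 8.70 and 12.4 CPM under 8L. Juvenile TYMS was 0, 0, 8.05 and 0 CPM under 16L and 10.3, 19.97, 12.6, 7.57 and 12.7 CPM under 8L. TYMS, which makes dTMP, was absent from 3 of the 4 juveniles of 16L and counted in all 5 of 8L. UHRF1 binds the half-methylated DNA that replication leaves behind. UHRF1 in adults was 3.00, 0, 2.40, 3.16 and 0 CPM under 16L and 3.48, 0, 3.55, 0 and 2.19 CPM under 8L. Juvenile UHRF1 was 12.5, 0, 5.37 and 0 CPM under 16L and 17.1, 12.7, 8.43, 0 and 10.2 CPM under 8L. It was above every adult in 6 of 9 juveniles and absent from the other 3.

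The test of age across photoperiods used all 19 birds with photoperiod as a term (edgeR quasi-likelihood test, Benjamini-Hochberg adjustment over all genes tested). The filter on low counts kept 10 of 37 members among 7165 genes, and 1 of the 10 was called at an adjusted p under 0.05, where 1.95% of all genes tested were called (82 higher, 1.14%, and 58 lower, 0.809%, in juveniles). That member was PCNA, with an adjusted p of 0.0271. DUT (1.32 ± 0.56 on the log2 scale) and POLE2 (-2.11 ± 0.82) had adjusted p of 0.292 and 0.237, and the other 7 lay between -0.67 and 0.72. The members tested had a median of 0.15 and all genes tested one of -0.16 on the log2 scale. The PCNA call depended on the filter and on the birds included. PCNA entered the test through juvenile libraries alone, as no adult library reached the filter's level, so the call is no separate support for the difference. PCNA dropped under the filter, and so was not tested, without any 1 of the 5 adults of 16L, adults 1, 3 or 5 of 8L or juvenile 2 of 8L, and in the 10 other such fits its adjusted p stayed between 0.0208 and 0.0478. It was not called without the juveniles rich in bone markers (1.54, adjusted p 0.0644), without juveniles listed as females (1.35, adjusted p 0.0664), without juveniles with HINTW counts (1.30, adjusted p 0.0859) or without the libraries under 200000 counts (1.51, adjusted p 0.0608).

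Since 27 members fell under the filter, the same test was also run on every gene with a count. All 37 members were then tested among 19529 genes, and 3 of 37 were called, all higher in juveniles, where 1.86% of all genes were called and 1.09% were called higher. These were RRM2 (adjusted p 5.20e-04), CDC45 (adjusted p 6.14e-04) and TK1 (adjusted p 7.97e-04), singled out after their values were seen. RRM2 and TK1 were called in every alternative run without the filter that gave an adjusted p, each bird left out in turn included. CDC45 was called in all but 1 of them, as it had 2.79 ± 1.05 on the log2 scale and an adjusted p of 0.141 without the 3 juveniles with HINTW counts. With the highest transcript and no filter 5 members were called, MCM5 and PCNA beside these 3, where 3.06% of all genes were called. PCNA had 1.25 ± 0.42 on the log2 scale with no filter and an adjusted p of 0.146.

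A larger share of members had a positive fitted value when those with few counts were included. With the filter 6 of 10 members had a positive difference, against 2796 of all 7165 genes tested. Within 16L it was 3 of 8 (all genes 2618 of 6641), and within 8L 3 of 5 (all genes 2278 of 5106). With no filter 31 of 37 had a positive difference (83.8%), against 32.1% of all 19529 genes, and the median was 1.12 against -0.38 on the log2 scale. The 6 that did not were POLE2, RFC1, POLD3, GINS3, PRIM1 and POLA1, of which 4 belong to the polymerases. Of the 17 members with 1 transcript, 16 were positive. The count of positive members was 33 with DESeq2 and 32 with limma-voom, where the median of all genes moved to 0.19 and 0.30, and 25 without the juveniles with HINTW counts. Most of these genes had few counts in juveniles and the members are not independent of each other, so that the share is a description. No member separated the ages in CPM, which 0.169% of all genes did.

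**Figure D5:**
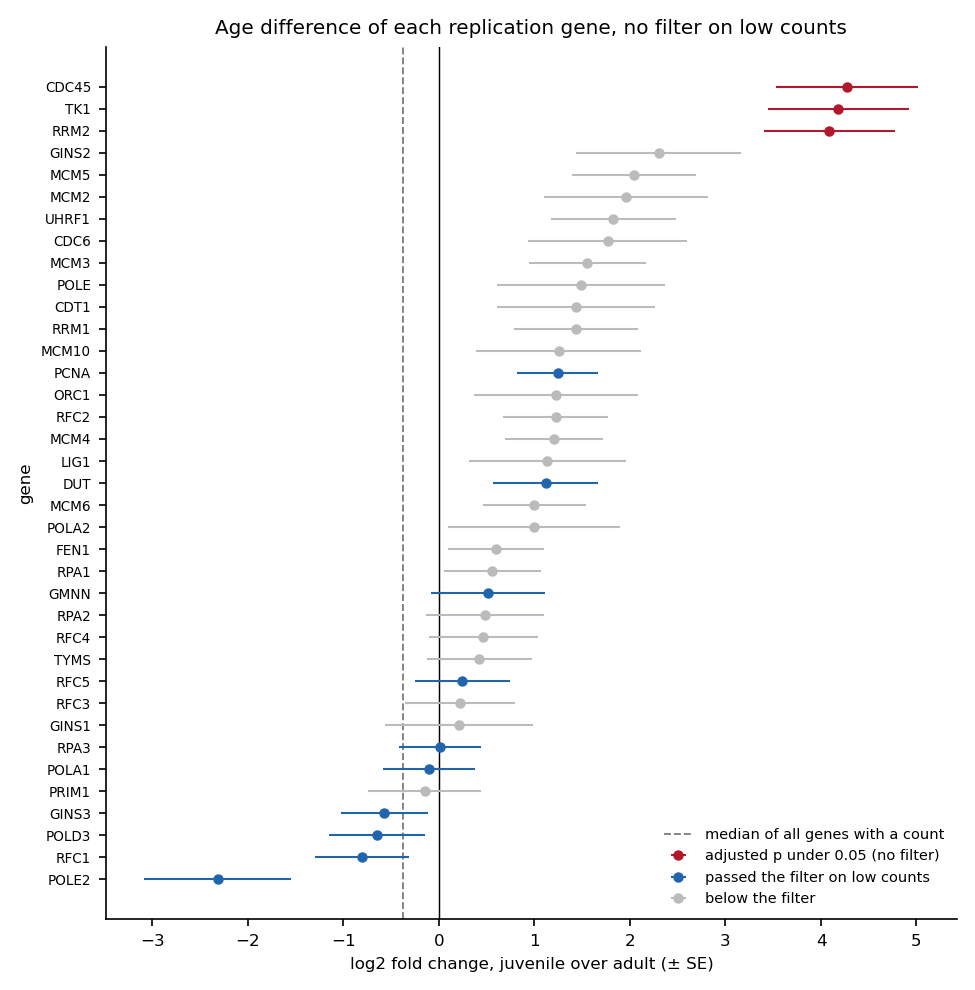
Fitted log2 fold change of juveniles over adults (± SE, worked back from the F statistic) for each of the 37 members with no filter on low counts, in order of size. Red marks the 3 members called there, blue those that passed the filter of the main test and grey those below it, and the dashed line is the median of all genes with a count (-0.38). RRM2, TK1 and CDC45 lie above 4, most members lie between 0 and 2.5, and POLE2 lies lowest at -2.31.

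Within each photoperiod the same contrast had fewer birds. Under 16L the filter kept 8 members among 6641 genes and none was called by edgeR, where 1.31% of all genes were, while 2 of the 8 had an unadjusted p under 0.05, as 9.82% of all genes did. At an unadjusted p under 0.01, passed by 4.28% of all genes, stood DUT, higher in juveniles (2.28 ± 0.66, adjusted p 0.148 by edgeR), and POLE2, lower (fitted value -7.20 for a group at 0, adjusted p 0.160 by edgeR). The DUT difference was 1.63 on the log2 scale without the 2 juveniles of 16L that were rich in bone markers, which were also its shallow libraries. DESeq2 called both, with adjusted p of 0.0242 for DUT and 0.0399 for POLE2, where it called 2.82% of all genes. With no filter CDC45 was called under 16L (4.33 ± 1.01, adjusted p 0.0350 by edgeR), where 0.996% of all genes were. Under 8L the filter kept 5 members among 5106 genes and none was called or had an unadjusted p under 0.05, where 0.157% of all genes were called and 8.5% had such a p. DESeq2 and limma-voom called none either. With no filter RRM2 was called under 8L (3.90 ± 0.95, adjusted p 0.0444 by edgeR), where 0.741% of all genes were. CDC45 had fitted values of 4.33 under 16L and 4.16 under 8L, and TK1 one of 3.87 under 8L, while RRM2 and TK1 were at 0 in adults of 16L and had 3 juvenile counts each there, which is at the floor, so that no ratio is given. PCNA passed the filter in neither photoperiod. With no filter it had 0.76 ± 0.64 under 16L and 1.68 ± 0.71 under 8L (adjusted p 0.756 and 0.396 by edgeR). The comparisons within 16L and 8L share no bird.

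Photoperiod left the members without a call. In adults 8 were tested among 7478 genes and none was called or had an unadjusted p under 0.05 (edgeR), where 0.0267% of all genes were called and 3.18% had such a p. DESeq2 and limma-voom also called none of them in adults, in juveniles or in the interaction. The largest difference among the 8 was that of DUT, at -0.93 ± 0.59 on the log2 scale (16L over 8L). With no filter RRM2, at 0 in all 16L adults and at 1 count in each of 3 adults of 8L, had the lowest p of the members in adults (adjusted p 0.852 by edgeR, where 0.0263% of all genes were called), and no ratio is given, since both groups are at or under the floor of 3 counts. In juveniles only DUT (1.10 ± 0.81) and POLA1 (-1.49 ± 0.78) passed the filter among 2405 genes, neither was called or had an unadjusted p under 0.05, and 0% of all genes were called and 1.7% had such a p. Juveniles of 8L had higher means of RRM2 (11.005 ± 6.25 CPM against 2.26 ± 2.70), TYMS (12.6 ± 4.61 against 2.01 ± 4.03) and PCNA (17.3 ± 7.16 against 11.4 ± 2.10, SD). Others went the opposite way, with higher means in juveniles of 16L for CDC45 (11.2 ± 9.13 CPM against 5.13 ± 6.69) and DUT (81.03 ± 68.9 against 43.5 ± 42.7, SD). No member had an adjusted p under 0.05 in juveniles with or without the filter. Of the 37 members 20 had the higher mean CPM in 16L among adults and 17 among juveniles.

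Whether the age difference itself changed with photoperiod was asked by the interaction. Of 10 members tested among 7165 genes none was called, and 0% of all genes were. POLA1 alone had an unadjusted p under 0.05 (-1.82 ± 0.80 on the log2 scale, adjusted p 0.826 by edgeR), as it was lower in juveniles than in adults under 16L (fitted -0.90) and higher under 8L (0.91). That p was passed by 5.74% of all genes. POLA1 overlaps 3 uncharacterised genes in the quail annotation and its 3 transcripts held near-equal counts in 9 of 18 libraries.

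Other genes of replication and division were read from lists that share no gene with the members. These lists, too, were chosen with earlier results of these data known. Among 36 further replication genes found, 11 were tested for age across photoperiods and 1 was called, CLSPN, an adaptor of the replication checkpoint, at 3.61 ± 0.85 on the log2 scale (adjusted p 0.0243, edgeR). ORC3 and DBF4, of the origin recognition complex and the kinase that fires origins, had -1.73 ± 0.55 and -1.19 ± 0.58 (adjusted p 0.134 and 0.385, edgeR), and TIPIN -0.59 ± 0.53. The list's median was 0.16 on the log2 scale, beside -0.16 for all genes tested. Among 21 regulators of S phase entry 8 were tested and none was called or had an unadjusted p under 0.05 by edgeR (4 of them CCNE2, CDKN1B, CCND3 and CCND2, from -0.32 to 1.09). Mitosis genes stood further apart, as 11 of the 16 tested were called, all higher in juveniles, with a median of 3.18. The 4 with the smallest p were PBK, a mitotic kinase (5.27 ± 0.60), SMC2, a condensin subunit (5.86 ± 0.72), and the cyclin kinase subunits CKS2 (3.35 ± 0.43) and CKS1B (3.38 ± 0.45). With no filter 18 of 31 mitosis genes, 3 of 37 members and 2 of 36 further replication genes were called. Of all genes 1.86% were called with no filter and 1.95% with it.

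Markers of other tissues moved with age as well. The summed CPM of 16 osteoblast and osteocyte genes was 45.4 to 75.9 in adults and 129 to 14203 in juveniles, that of 9 red blood cell genes 584 to 2396 and 1008 to 12709, and that of 14 connective tissue genes 162 to 293 and 541 to 7542. Without the 4 juveniles rich in bone markers the replication sum averaged 394 ± 148 CPM (SD, n = 5) in juveniles. With no filter RRM2, TK1 and CDC45 were then called at 4.79, 4.46 and 4.93 on the log2 scale, against 4.09, 4.18 and 4.28 with all birds. The 5 juveniles left still held 129 CPM or more of the bone markers, above every adult. POLE2, whose juvenile counts lay in juveniles 1 and 5 of 8L, was then at 0 in the juveniles left and was called lower (adjusted p 0.0225 with the filter, edgeR). Pituitary markers were present in every bird, with the summed level of 6 hormone genes at 12276 to 63068 CPM in adults and 25676 to 85910 CPM in juveniles other than juveniles 1 and 5 of 8L, both rich in bone markers, which stood apart at 2273 and 7430 CPM. Markers of progenitor and glial cells of the pituitary (8 genes) summed to 34.02 to 173 CPM in adults and 91.3 to 878 CPM in juveniles, those of cartilage (14 genes) to 24.03 to 74.2 and 36.8 to 6006 CPM, and those of leukocytes (10 genes) to 0 to 2207 and 0 to 154 CPM. The part of bone, red blood cells, connective tissue, cartilage, progenitors and leukocytes in the age differences was not tested.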

How the data were processed

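Pituitary RNA of 19 Japanese quail, 1 library per bird, was read by PCR-cDNA Nanopore sequencing. The authors aligned reads with minimap2 and deposited estimated counts per transcript from Salmon (versions not given in the sources used here), without normalization. All 19 count columns were mapped to birds by their labels, and 0 columns were left over. Counts were summed per gene symbol, rounded, filtered (edgeR filterByExpr, minimum count 10, minimum total 15), scaled by TMM and tested with the quasi-likelihood test of edgeR 4.0.16 in R 4.3.3, with Benjamini-Hochberg adjustment over all genes tested and a threshold of 0.05. DESeq2 1.42.0, limma 3.58.1 (voom), other filters, factors and sets of birds served as alternatives. The procedure was tested on simulated data in which only genes that passed the filter were given a difference. That test therefore does not cover differences of genes under the filter, such as RRM2, TK1 and CDC45. Exact intervals (95%) and floors of 3 counts use the highest transcript and speak of counting alone, because amplified copies are no independent molecules. Sums per bird carry no test. The SE beside an edgeR value is its absolute log2 value over the square root of the F of its test. It is an approximation and not a standard error given by the fit.

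The members and all lists were chosen with earlier results of these data known. Values per bird are given for members past an adjusted p of 0.05, past p of 0.01 within an age or photoperiod, and for up to 2 members of each role with the highest mean CPM. RRM2 and TK1 were added after their values were seen. Other lists are named by the up to 4 genes with the smallest p for age. The labels name separate birds as replicates. No pairing of birds by replicate number was seen in the values. Juveniles were called rich in bone markers above a summed 2000 CPM.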

Additional observations from a re-analysis of the deposited data

Results flagged for a closer look

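Single birds were screened by Dixon's criterion in 22 measures (the summed level and single members) with 4 groups each. In 13 of 88 groups a bird lay far from the rest. The criterion's chance rate of about 1 in 20 groups holds for normally distributed values. Most of these measures are sparse counts, so the 13 cannot be set against that rate. Where most birds had no count, a single read sets such a bird apart.

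Adult bird 2 of 8L, the shallowest adult library, stood low in 3 measures. Its summed level of the members was 119 CPM, against 297 to 367 CPM in the other 8L adults. POLD3 was at 0 CPM in it against 18.9 to 23.6 CPM, and RFC5 at 0 CPM against 11.7 to 14.9 CPM.

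Juvenile bird 3 of 16L stood high for MCM4 (16.1 CPM against 7.36 to 8.61), for ORC1 (16.1 CPM against 0) and for TYMS (8.05 CPM against 0). Juvenile bird 4 of 8L, the shallowest library, had FEN1 at 37.9 CPM against 7.62 to 13.7 CPM. Juvenile bird 2 of 8L was the only one of its group with a count of LIG1 (0.908 CPM).

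Among adults, MCM4 was 6.96 CPM in bird 3 of 16L against 2.56 to 3.79 CPM. ORC1 was 4.51 CPM in bird 1 of 16L against 0, and 14.9 CPM in bird 4 of 8L against 0 to 2.19 CPM. Bird 5 of 8L was the only adult of 8L with a count of CDC45 (0.729 CPM) and of TK1 (0.729 CPM).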

How the results depend on the processing

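For age across photoperiods 1 member was called with the filter on low counts (1.95% of all genes tested). This count became 3 with no filter, 0 with a stricter filter, 0 without juveniles listed as females, 0 without juveniles with HINTW counts and 3 without juveniles rich in bone markers (CDC45, POLE2 and RRM2). The stricter filter asked for at least 10 counts in every bird of a group. PCNA did not pass it, so it was not tested there. Leaving out 1 bird gave 0 to 3 members. With no filter 3 were called (1.86% of all genes), 2 without juveniles with HINTW counts and 5 with the highest transcript (3.06% of all genes). DESeq2 with no filter called 5 (the adjusted p of TK1 stayed NA), and limma-voom called 18, along with 6382 of 19529 genes. With no filter and 1 bird left out 3 to 4 were called. POLE2 was the fourth, without juvenile 1 of 8L. Where no share of all genes is given, here and below, a count shows only how the calls moved with the setting.

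Under 16L the count of 0 (1.31% of all genes) became 2 with DESeq2 (2.82%), 1 with no filter (0.996%) and 2 at an unadjusted p under 0.01 (4.28%). It became 1 without the libraries under 200000 counts, 1 without juveniles rich in bone markers and 2 at an adjusted p under 0.2. Leaving out 1 bird gave 0 to 1, the 1 being CDC45 without juvenile 1 of 16L. Under 8L the count of 0 (0.157% of all genes) became 1 with no filter (0.741%), 1 without juveniles rich in bone markers and 2 with the highest transcript and no filter. Photoperiod in adults, photoperiod in juveniles and the interaction had 0 members called in every alternative. No call changed direction, while the age difference of POLA1, which was not called, was 0.10 on the log2 scale with the filter and -0.10 with no filter, and those of RFC5 and RPA3 were -0.36 and -0.07 without juveniles with HINTW counts. The fitted value of PCNA lay between 1.25 and 1.54 on the log2 scale in 14 alternatives, with an adjusted p (edgeR, DESeq2 or limma) of 0.00216 to 0.146. The cause of these changes was not tested.

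With the replicate block no member was called for age across photoperiods (0, PCNA at 1.40 on the log2 scale with an adjusted p of 0.109 by edgeR). Over 27 same-numbered pairs the deviations correlated at -0.102 to 0.095 and none was over 0.1. No pairing by number was seen, though a weak one could be missed at this depth. The alternatives with the highest transcript, those that join no filter to another choice and the omission of juveniles with HINTW counts were chosen after seeing the data. Depth limits the members, as 27 of 37 fell under the filter.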
